A study of Mus musculus with 8 samples.

Results

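The genes of mitochondrial complexes II to V are described here in mouse heart muscle after coronary occlusion and reperfusion, with and without DJ-1 protein given beforehand. Members were all genes whose symbol in the platform annotation began with Uqcr, Cox4 to Cox8 or Atp5, or was Sdha, Sdhb, Sdhc, Sdhd, Cyc1 or Cycs. Only probe sets with a single gene symbol were used, and a gene with several was represented by the probe set of highest mean. This gave 48 genes of the 19938 measured: 4 of complex II, 9 of complex III, 17 of complex IV, 17 of complex V and Cycs, the gene of cytochrome c. The pattern also takes in Cox7a2l, a supercomplex factor, and the testis isoforms Cox6b2, Cox7b2 and Cox8c. Cox7c, another subunit of complex IV, was not a member, because its 3 probe sets also carry the symbol Gm12338.

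The arrays held RNA of myocardial tissue from 8 male mice (strain CH3 in the labels; age 8 to 10 weeks, weight 25 to 30 g). The 4 placebo mice received PBS and the 4 DJ-1 mice received recombinant DJ-1 protein, in both cases 1 h before ligation of the left anterior descending artery. All 8 hearts went through 45 minutes of occlusion and 2 h of reperfusion, so the comparison is between treated and untreated injured hearts, with no uninjured group. Values are log2 expression per probe set, so a difference of 1 is a doubling, and each group has 4 arrays. Park7 encodes DJ-1, which senses oxidative stress and is found partly at mitochondria.

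The respiratory chain passes electrons from foodstuffs to oxygen and uses the energy to pump protons out of the mitochondrial matrix. Complex II takes electrons from succinate, complex III hands them to cytochrome c, complex IV delivers them to oxygen, and complex V lets the protons flow back and makes ATP. Heart muscle is packed with mitochondria, and accumulation of succinate during ischaemia followed by its rapid oxidation on reperfusion is a known source of reactive oxygen species. Several nuclear genes of complex IV exist as isoforms: a heart form of COX6A, COX7A and COX8 replaces the liver form in heart and skeletal muscle.

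The genes of complexes II to V were measured at nearly the same level in both groups. The median difference, DJ-1 minus placebo, was -0.01 over the 48 members, against 0.01 over all genes, and single members lay between -0.17 (Cox4i2) and 0.08 (Sdhd). By complex the median was 0.01 for complex II, -0.02 for complex III and -0.01 for complexes IV and V. Among the 9969 genes above the median level the median difference was -0.03, and -0.01 for the 45 members among them. Among 2388 genes of high signal, defined below, it was -0.01, as for the 44 members with a mean above 8. The mean was lower in DJ-1 for 31 members and higher for 17, while 47.5% of all genes had a lower mean in DJ-1. With each array centred on its median, which moves the median of all genes to -0.03, the members divided into 40 lower and 8 higher.

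No member passed the test: 0 of 48 had an adjusted p under 0.05 in limma with Benjamini-Hochberg adjustment over all genes, and 0% of the 19938 genes did. The lowest adjusted p among the members was 0.82. At an unadjusted p under 0.05, 0 of 48 members were counted by limma, against 5.99% of all genes. Ordinary least squares without moderated variances also left 0 members after adjustment and counted 2 at an unadjusted p under 0.05, Atp5l and Uqcrq (4.17% of the members, against 5.61% of all genes). The 4 placebo and 4 DJ-1 values were fully separated for 0 of 48 members and for 3.22% of all genes (1.68% with DJ-1 lower and 1.54% with DJ-1 higher).

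The intervals show which sizes of change these arrays would leave room for. The 95% confidence interval of the difference lay within 1.5-fold either way for 48 of 48 members, and for 91.5% of all genes. It lay within 1.2-fold either way for 34 members, and for 15.3% of all genes. By complex, the members outside this limit were Sdhd; Uqcrh and Uqcrq; Cox4i2, Cox6b2, Cox7a2, Cox7a2l, Cox7b2 and Cox8c; and Atp5e, Atp5k, Atp5l, Atp5md and Atp5mpl. Apart from Cox7b2 no interval of a member reached below -0.39 or above 0.44.

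**Figure D1:**
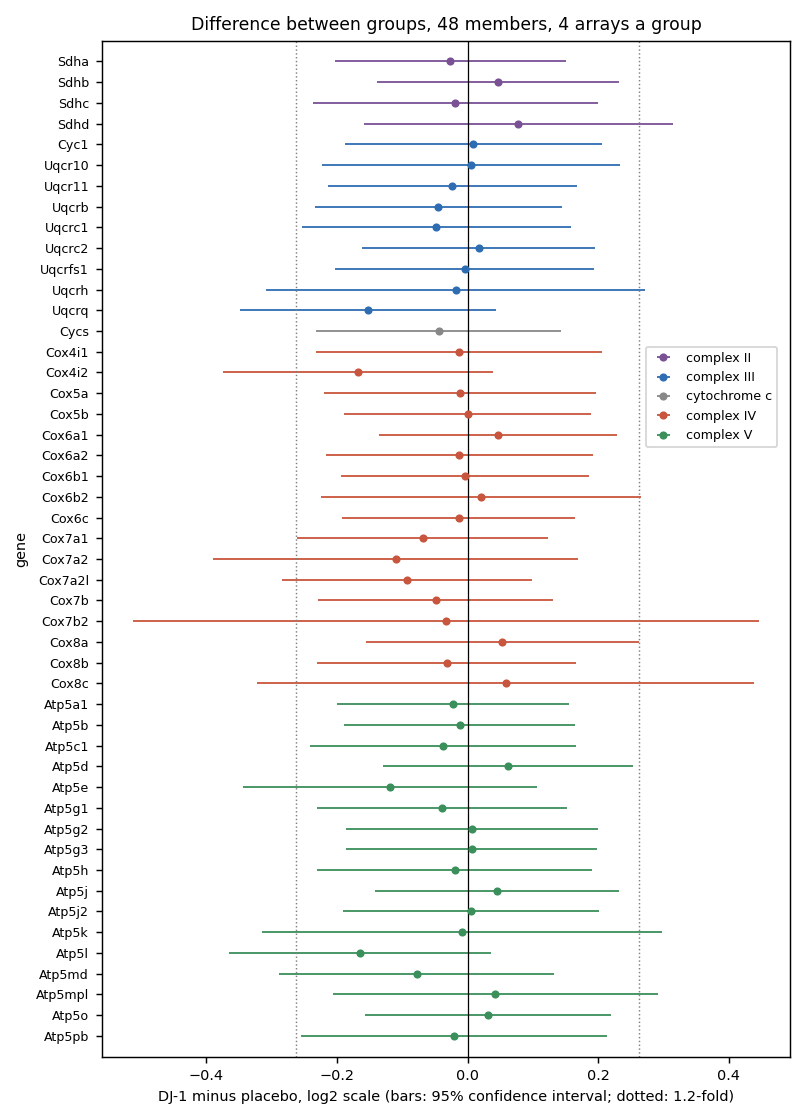
Difference between groups (DJ-1 minus placebo, log2 scale, horizontal axis) for each of the 48 genes (vertical axis, coloured by complex), with the 95% confidence interval of the limma fit as a bar and 1.2-fold limits as dotted lines. All 48 intervals cross 0, and 34 of them stay inside the dotted lines.

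The tissue carried the markers of ventricular muscle: all 10 cardiomyocyte markers lay between 11.3 and 13.9, far above the 4.74 that bounds 95% of 1027 olfactory receptor genes, used as a guide to background. Of these, 8 had a lower mean in DJ-1 and 2 a higher one (median difference -0.03), and their mean deviation per array ran from -0.06 to 0.13 in placebo and from -0.12 to 0.08 in DJ-1. Neutrophil markers had a higher mean in DJ-1 for 8 of 8 genes (median difference 0.92) and erythroid markers for 3 of 3. Fibroblast markers had a lower mean for 7 of 7 and endothelial markers for 5 of 6. No gene of these 4 lists passed adjusted p 0.05 in limma. The mean deviation of the neutrophil markers ran from -1.84 to 1.05 on placebo arrays and from -0.62 to 1.41 on DJ-1 arrays. The groups were fully separated for 0 of 8 neutrophil, 1 of 3 erythroid (Slc4a1), 1 of 7 fibroblast (Gsn) and 0 of 6 endothelial markers. Over all genes the share was 3.22%. The mean deviation of the fibroblast markers ran from 0.02 to 0.14 on placebo arrays and from -0.17 to 0.003 on DJ-1 arrays. Monocyte and macrophage markers were lower for 4 of 8. Of the atrial, skeletal muscle, adipocyte and lung markers, 3 of 5, 5 of 8, 3 of 7 and 1 of 4 lay above the guide. Placebo array 1 stood apart in the skeletal muscle markers (mean deviation 0.66, against -0.27 to 0.12 on the other arrays). Placebo array 2 stood apart in the atrial markers (0.60, against -0.28 to 0.09). DJ-1 arrays 3 and 4 stood apart in the first principal component (19.6 and 23.5, against -15.0 to 5.31). In whole tissue, fewer cells of a type and less RNA per cell cannot be told apart. The part of cell makeup in the members' values was not tested. Sample codes in the labels are consecutive within each group; were they an order of handling, it could not be told apart from treatment.

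Complex II has 4 subunits, all encoded in the nucleus and all measured. Sdha, the flavoprotein that oxidises succinate, was at 11.52, 11.51, 11.44 and 11.50 on the placebo arrays and at 11.49, 11.47, 11.43 and 11.47 on the DJ-1 arrays. All 8 arrays agreed to within 0.09, and the difference was -0.03 ± 0.08 (SE, n = 4 per group). The SEs of gene differences here are those of limma, which draws each gene's variance towards that of all genes. For Sdha this SE is therefore larger than its own SD within groups, 0.03, would give. Sdhb, the iron-sulphur subunit, was at 11.72, 11.71, 11.75 and 11.65 on the placebo arrays and at 11.78, 11.84, 11.73 and 11.68 on the DJ-1 arrays, a difference of 0.05 ± 0.08 (SE). Sdhc, a membrane anchor, ranged from 11.59 to 11.78 in placebo and from 11.53 to 11.84 in DJ-1, with a difference of -0.02. The other membrane anchor, Sdhd, had the highest difference of all members, with 11.12, 11.41, 11.27 and 11.19 on the placebo arrays and 11.52, 11.33, 11.13 and 11.32 on the DJ-1 arrays. Its DJ-1 array 3 lay at the level of its lowest placebo array, and the difference of 0.08 had a 95% confidence interval from -0.16 to 0.31. It was 0.01 without DJ-1 array 1, 0.03 without placebo array 1, 0.13 without placebo array 2 and 0.14 without DJ-1 array 3.

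The promoter of Sdha is shown because, with that of Sdhd, it held the most matches to the core letters of the NRF1 motif among the member windows. NRF1 is a transcription factor known to act on many nuclear genes of the respiratory chain. In the 250 bases before the start of Sdha (GRCm38.p6, chr13:74350241-74350490, minus strand, from RefSeq), the letters TGCGCA occurred 2 times and are in capitals.

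Sdha: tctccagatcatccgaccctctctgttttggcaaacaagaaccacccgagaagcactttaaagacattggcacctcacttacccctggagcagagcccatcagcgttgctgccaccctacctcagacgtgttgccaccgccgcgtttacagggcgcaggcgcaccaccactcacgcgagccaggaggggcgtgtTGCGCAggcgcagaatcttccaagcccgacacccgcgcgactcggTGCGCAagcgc

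Complex III takes electrons from ubiquinol. Its catalytic subunits measured here are Cyc1, cytochrome c1, and Uqcrfs1, the Rieske iron-sulphur protein. Cyc1 was at 12.21, 11.98, 12.04 and 12.05 on the placebo arrays and at 12.17, 12.05, 12.06 and 12.04 on the DJ-1 arrays. Array 1 was the highest in each group, and the group means differed by 0.01 ± 0.09 (SE). Uqcrfs1 ranged from 8.91 to 9.14 in placebo and from 8.95 to 9.12 in DJ-1, and its difference was -0.004. The core proteins Uqcrc1 and Uqcrc2, which form the matrix part of the complex, differed by -0.05 and 0.02.

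Uqcrq, a small subunit near the membrane part, had the lowest difference in complex III. It was at 11.46, 11.36, 11.56 and 11.37 on the placebo arrays and at 11.38, 11.25, 11.29 and 11.22 on the DJ-1 arrays. The groups overlapped through DJ-1 array 1, which lay above placebo arrays 2 and 4. The difference was -0.15 ± 0.09 (SE), with a 95% confidence interval from -0.35 to 0.04, an unadjusted p of 0.117 and an adjusted p of 0.82 in limma. With quantile normalization or cyclic loess the Uqcrq values of the groups no longer overlapped, as for 3.15% and 3.18% of all genes, and the adjusted p remained above 0.05. The other small subunits Uqcrb, Uqcr10 and Uqcr11 differed by between -0.05 and 0.01.

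Uqcrh, the hinge protein that sits beside cytochrome c1, varied more than any other complex III gene. Its values were 11.61, 11.75, 11.73 and 11.42 on the placebo arrays and 11.94, 11.58, 11.33 and 11.60 on the DJ-1 arrays. Both the highest and the lowest value belonged to the DJ-1 group, and the group means differed by -0.02. Cycs, the mobile carrier between complexes III and IV and also a trigger of apoptosis once released from mitochondria, was at 13.07, 13.22, 13.09 and 13.10 on the placebo arrays and at 13.14, 13.08, 13.07 and 13.01 on the DJ-1 arrays. Its difference was -0.04 ± 0.09 (SE). Of its 3 probe sets, the one used (mean 13.10) gave -0.04, and the others gave -0.06 (mean 12.52) and 0.02 (mean 6.04).

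Complex IV, cytochrome c oxidase, carries the isoforms that set heart apart from other tissues. Its catalytic core is encoded by mitochondrial DNA; of that core the probe set named COX2, mitochondrial subunit 2, was measured and differed by -0.08 ± 0.09 (SE). The heart isoform Cox6a2 was at 12.98, 12.78, 12.93 and 12.98 on the placebo arrays and at 12.80, 12.92, 12.88 and 13.03 on the DJ-1 arrays. Its liver counterpart Cox6a1 was at 9.25, 9.12, 9.20 and 9.21 on the placebo arrays and at 9.28, 9.28, 9.20 and 9.21 on the DJ-1 arrays. Neither gene separated the groups, and the differences were -0.01 and 0.05.

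Cox7a1, the heart isoform of COX7A, was at 12.88, 12.84, 12.79 and 12.77 on the placebo arrays and at 12.88, 12.67, 12.71 and 12.76 on the DJ-1 arrays. The liver isoform Cox7a2 was at 10.73, 11.07, 10.96 and 10.70 on the placebo arrays and at 11.00, 10.86, 10.57 and 10.58 on the DJ-1 arrays. Cox7a2 thus spread over 0.49 across the 8 arrays while Cox7a1 spread over 0.22. Differences were -0.07 ± 0.09 (SE) for Cox7a1 and -0.11 ± 0.13 (SE) for Cox7a2.

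The heart isoform Cox8b was at 12.74, 12.68, 12.69 and 12.68 on the placebo arrays and at 12.78, 12.57, 12.55 and 12.75 on the DJ-1 arrays. The liver isoform Cox8a was at 10.96, 10.82, 10.95 and 10.81 on the placebo arrays and at 10.97, 10.84, 10.85 and 11.10 on the DJ-1 arrays. The DJ-1 arrays of Cox8b lay on both sides of the placebo arrays. The differences were -0.03 for Cox8b and 0.05 for Cox8a.

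To ask whether the balance of isoforms moved with treatment, the liver value was subtracted from the heart value on each array and the groups were compared. Probe sets differ in affinity, so the size of this quantity says nothing about the ratio of the transcripts, and its change between groups is what can be read. For COX6A it was 3.72 ± 0.05 among placebo arrays and 3.66 ± 0.13 among DJ-1 arrays (SD, n = 4 each), a change of -0.06 (95% confidence interval -0.22 to 0.10) with a two-sided exact permutation p of 0.429. For COX7A it was 1.96 ± 0.18 and 2.00 ± 0.19 (SD), a change of 0.04 (-0.28 to 0.36; exact permutation p = 0.629). For COX8 it was 1.81 ± 0.06 and 1.73 ± 0.07 (SD), a change of -0.09 (-0.20 to 0.03; exact permutation p = 0.114). No pair passed the test: after Benjamini-Hochberg adjustment over the 3 pairs the exact permutation p-values were 0.629, 0.629 and 0.343. The smallest p that 4 against 4 arrays can give is 0.0286. The direction for COX7A turned when placebo array 2 (-0.02), DJ-1 array 3 (-0.004) or DJ-1 array 4 (-0.02) was left out. The change for COX6A was -0.01 without DJ-1 array 1 and -0.11 without DJ-1 array 4.

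The heart isoforms are also those of skeletal muscle, and Cox7a1 and Cox8b are abundant in brown fat. Placebo array 1, where skeletal muscle markers stood 0.66 above their mean, had the highest placebo value of Cox6a2, Cox7a1 and Cox8b. For Cox6a2 the lead was small (12.984, against 12.983 on placebo array 4). The liver isoforms Cox6a1 and Cox8a, though not Cox7a2, also had their highest placebo value on placebo array 1. Without that array the changes in heart minus liver value were -0.06, 0.11 and -0.10 for COX6A, COX7A and COX8. Of the 7 adipocyte and brown fat markers, 5 had a higher mean in DJ-1 (median difference 0.14). The groups did not overlap for 2 of the 7, Ucp1 and Elovl3, against 3.22% of all genes. Ucp1, the defining brown fat gene, had group means of 3.97 (placebo) and 4.17 (DJ-1), below the background guide. Elovl3, Lep and Adipoq also lay below it, while Cidea (7.19 and 7.30), Plin1 (5.37 and 5.53) and Cidec (5.41 and 5.37) lay above it. The part of fat in the isoform values was not tested.

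**Figure D2:**
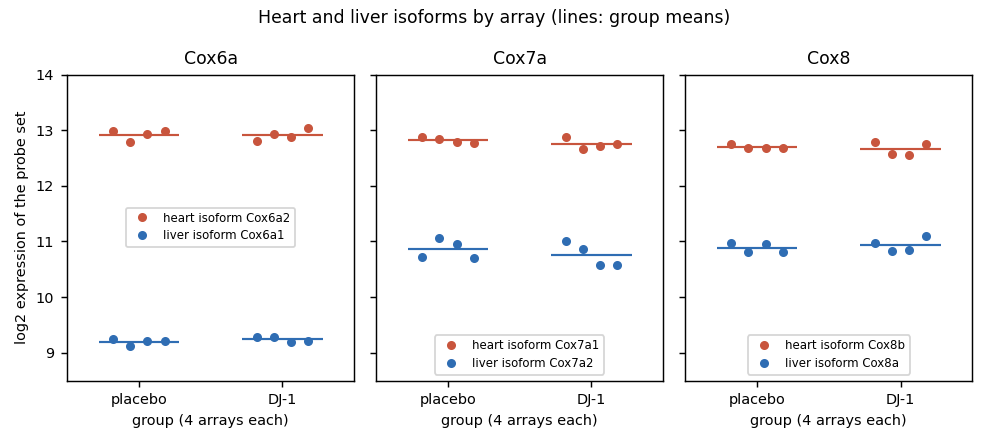
Log2 expression of the heart isoform (red) and the liver isoform (blue) on each array (points) with group means (lines) for COX6A, COX7A and COX8; the distance between colours reflects probe affinity as well as transcript level. The points of both groups overlap for all 6 genes, and Cox7a2 is the most scattered, from 10.57 to 11.07.

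The promoters of the isoforms are shown because heart and liver forms differed in CpG content, a feature of the DNA that expression arrays do not measure. The 250 bases before the start (GRCm38.p6, from RefSeq) are given with CpG dinucleotides in capitals. Cox7a1 (chr7:30183921-30184170, plus strand) held 4 CpG and Cox7a2 (chr9:79759854-79760103, minus strand) held 14. Cox8b (chr7:140900447-140900696, minus strand) held 1 and Cox8a (chr19:7217617-7217866, minus strand) held 11. The median was 14 over the member windows and 6 over all 32851 promoter windows of the table. The heart forms therefore lay below the median of all promoters, and the liver forms above it. The Cox8b window also held an E-box of the letters CAGCTG, a motif bound by muscle transcription factors. Cox6a2 is not covered here.

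Cox7a1: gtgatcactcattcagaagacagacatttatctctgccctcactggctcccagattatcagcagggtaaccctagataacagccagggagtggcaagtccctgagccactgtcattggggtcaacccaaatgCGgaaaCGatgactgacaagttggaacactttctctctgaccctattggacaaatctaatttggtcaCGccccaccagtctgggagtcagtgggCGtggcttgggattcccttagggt
Cox7a2: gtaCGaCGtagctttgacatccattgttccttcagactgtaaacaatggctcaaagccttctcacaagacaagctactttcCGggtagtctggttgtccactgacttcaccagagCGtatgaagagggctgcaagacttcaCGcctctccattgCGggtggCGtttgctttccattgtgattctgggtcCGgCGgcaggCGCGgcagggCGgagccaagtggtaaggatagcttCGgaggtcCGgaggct
Cox8b: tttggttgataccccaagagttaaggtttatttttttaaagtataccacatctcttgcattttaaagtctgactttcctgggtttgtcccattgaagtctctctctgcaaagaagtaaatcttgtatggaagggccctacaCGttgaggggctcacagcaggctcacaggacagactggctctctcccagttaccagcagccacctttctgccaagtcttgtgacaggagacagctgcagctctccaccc
Cox8a: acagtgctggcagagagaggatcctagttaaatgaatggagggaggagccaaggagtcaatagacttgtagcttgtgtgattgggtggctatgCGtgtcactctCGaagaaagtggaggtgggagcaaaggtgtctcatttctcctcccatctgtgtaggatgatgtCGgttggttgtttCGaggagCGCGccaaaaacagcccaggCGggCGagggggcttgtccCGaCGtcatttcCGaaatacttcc

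Cox4i1 and Cox4i2 encode alternative forms of subunit IV, and Cox4i2 is the form of lung and of oxygen-sensing cells and is also found in pericytes. Cox4i1 was at 11.51, 11.44, 11.68 and 11.53 on the placebo arrays and at 11.59, 11.40, 11.43 and 11.68 on the DJ-1 arrays, a difference of -0.01 ± 0.10 (SE). Cox4i2 was at 7.27, 7.34, 7.38 and 7.30 on the placebo arrays and at 7.19, 7.13, 6.99 and 7.31 on the DJ-1 arrays. In Cox4i2, 3 DJ-1 arrays lay below all placebo arrays and DJ-1 array 4 lay among them. The difference was -0.17 ± 0.09 (SE; 95% confidence interval -0.37 to 0.04), the lowest of all members, with an unadjusted p of 0.102 and an adjusted p of 0.82 in limma. The markers of pericytes and smooth muscle had a lower mean in DJ-1 for 6 of 7. Their mean deviation per array was 0.03 to 0.19 in placebo and -0.12 to -0.02 in DJ-1. The groups were fully separated for 2 of the 7 (Kcnj8 and Pdgfrb), against 3.22% of all genes, and 0 passed adjusted p 0.05 in limma. The part of pericytes and smooth muscle cells in the Cox4i2 values was not tested.

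Among the remaining complex IV genes, Cox7a2l, a factor that links complexes III and IV into supercomplexes, was at 8.43, 8.46, 8.64 and 8.48 on the placebo arrays and at 8.46, 8.42, 8.38 and 8.37 on the DJ-1 arrays. Its difference was -0.09 ± 0.09 (SE), and its other probe set gave -0.01. Cox5a and Cox5b, Cox6b1, Cox6c and Cox7b, the subunits shared by all tissues, differed by between -0.05 and 0.0001. Cox6c was the steadiest of these, from 13.61 to 13.72 over the 8 arrays. The testis isoforms lay near or below the background guide: Cox7b2 had group means of 2.75 and 2.71, Cox6b2 of 4.82 and 4.84, and Cox8c of 5.11 and 5.17. Cox7b2 stood at 3.56 on placebo array 1 and between 2.36 and 2.85 on the others.

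Complex V, the ATP synthase, turns a ring of c subunits with the returning protons and makes ATP in its F1 head. The catalytic head genes were the steadiest of the complex. Atp5a1, the alpha subunit, ranged from 12.68 to 12.77 over all 8 arrays. Atp5b, the catalytic beta subunit, was at 13.24, 13.21, 13.16 and 13.20 on the placebo arrays and at 13.16, 13.18, 13.23 and 13.21 on the DJ-1 arrays. Both groups thus spanned the same narrow range, and the differences were -0.02 ± 0.08 and -0.01 ± 0.08 (SE). The gamma subunit Atp5c1, the rotating shaft, differed by -0.04, and Atp5d and Atp5e, which sit at its foot, by 0.06 and -0.12.

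Atp5d was at 13.50, 13.39, 13.42 and 13.53 on the placebo arrays and at 13.47, 13.45, 13.56 and 13.61 on the DJ-1 arrays. Atp5e was at 9.40, 9.45, 9.66 and 9.53 on the placebo arrays and at 9.56, 9.32, 9.23 and 9.45 on the DJ-1 arrays. Array 1 of the DJ-1 group lay above 3 of the 4 placebo arrays in Atp5e, and neither gene separated the groups. The c ring is encoded by Atp5g1, Atp5g2 and Atp5g3, which make the same mature protein with different import sequences. Their differences were -0.04, 0.01 and 0.01. Atp5g3 was at 12.73, 12.62, 12.85 and 12.68 on the placebo arrays and at 12.68, 12.73, 12.72 and 12.78 on the DJ-1 arrays.

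Atp5l, subunit g of the membrane part where synthase dimers form, had the lowest p of all members. It was at 10.33, 10.39, 10.57 and 10.51 on the placebo arrays and at 10.36, 10.32, 10.23 and 10.23 on the DJ-1 arrays. The groups overlapped where DJ-1 array 1 exceeded placebo array 1, while DJ-1 arrays 2, 3 and 4 lay below every placebo array. The difference was -0.16 ± 0.09 (SE; 95% confidence interval -0.36 to 0.04), with an unadjusted p of 0.0996 and an adjusted p of 0.82 in limma. All 6 of its probe sets had a lower mean in DJ-1, from -0.16 to -0.09, but they were read on the same arrays and are not independent. Of the 13 members with more than 1 probe set, 7 had all their probe sets of 1 sign. With replicates 1 and 2 of each group alone the difference was -0.02.

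**Figure D3:**
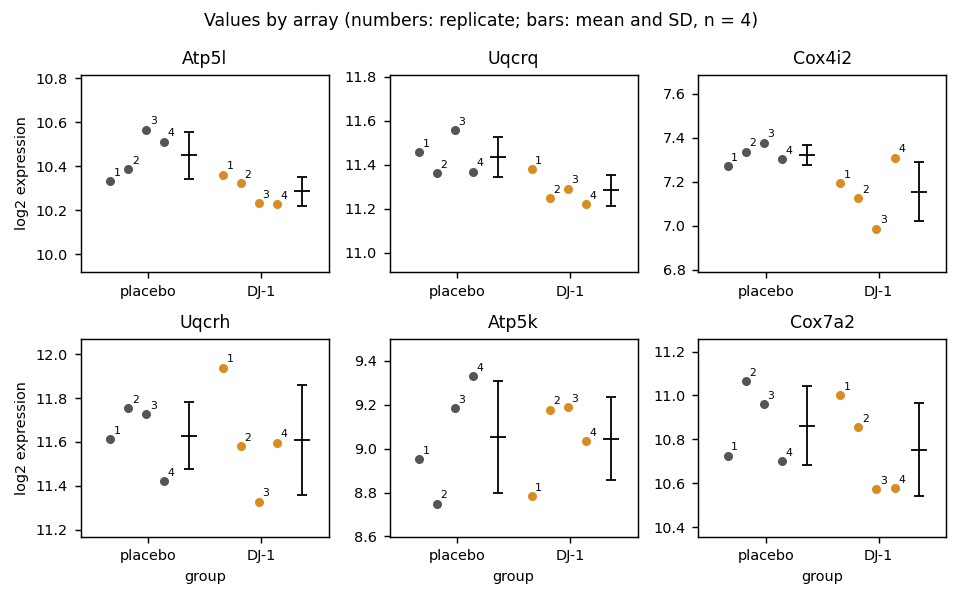
Log2 expression on each array (points, numbered by replicate) with the mean and SD (bars, n = 4) for 6 genes chosen after their values were seen: Atp5l, Uqcrq and Cox4i2, with the lowest differences, and Uqcrh, Atp5k and Cox7a2, the most variable genes with a mean above 8. In the upper panels the groups overlap by 1 or a few arrays, and in the lower panels each group spans most of the range of the other.

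Members also varied between arrays within each group. Atp5k, subunit e of the synthase, was at 8.95, 8.75, 9.18 and 9.33 on the placebo arrays and at 8.78, 9.18, 9.19 and 9.03 on the DJ-1 arrays. It had its lowest value on placebo array 2, where Cox7a2 had its highest (11.07). Atp5mpl, a small accessory subunit, was lowest on placebo array 1 (10.50, against 10.64 to 10.94 elsewhere). Atp5k, Atp5mpl and Uqcrh were singled out after their values were seen.

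The median deviation of the 48 members from their own means was -0.01, 0.00, 0.03 and 0.00 on the placebo arrays and 0.04, -0.03, -0.05 and 0.01 on the DJ-1 arrays. On DJ-1 array 1, 33 of 48 members lay above their own mean, and on DJ-1 array 3, 12 did. On placebo array 3, 33 did. High and low arrays were thus both found in the DJ-1 group, where these medians over the 48 members had the larger spread (SD 0.04, against 0.02 in placebo). By complex, this SD was 0.058 in DJ-1 and 0.018 in placebo for complex IV. For complexes II, III and V it was 0.034, 0.025 and 0.045 in DJ-1, and 0.043, 0.022 and 0.046 in placebo.

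**Figure D4:**
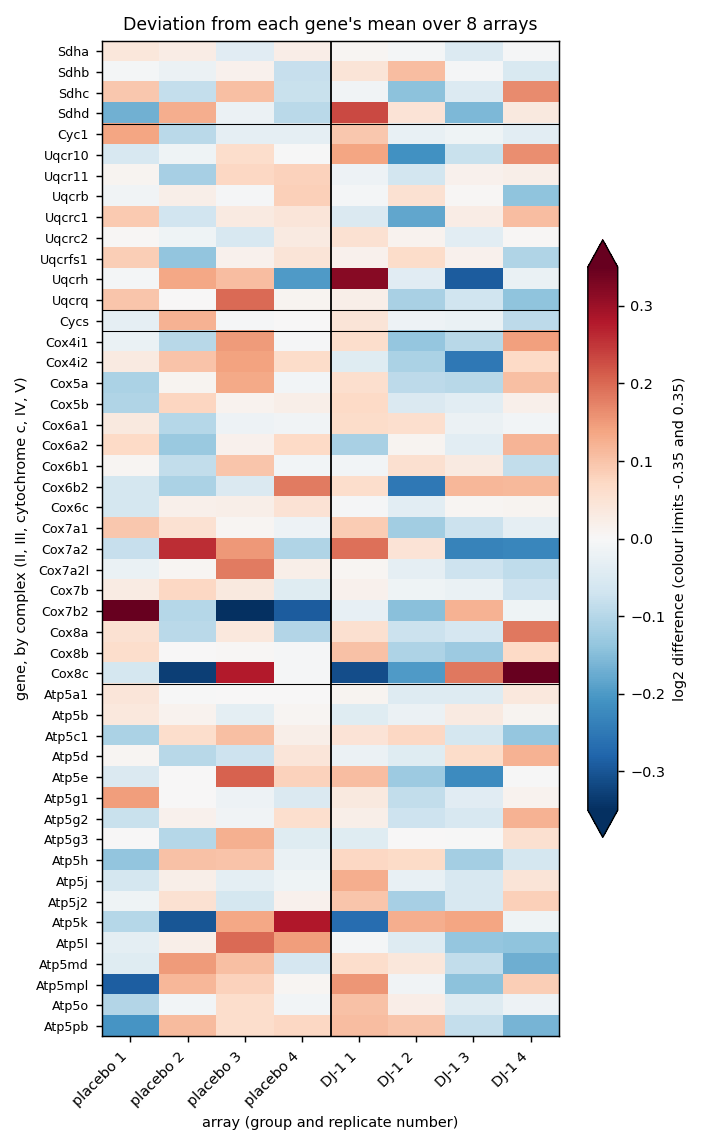
Deviation of each of the 48 genes (vertical axis, grouped by complex) from its own mean over the 8 arrays (log2 scale, colour; limits -0.35 and 0.35), with placebo arrays on the left and DJ-1 arrays on the right of the line. No complex has a block of one colour on either side, and the deepest colours belong to Cox7b2 and Cox8c, testis isoforms, and to Uqcrh.

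The members were measured more tightly than most genes. Their median SD within groups was 0.08, against 0.17 over all genes. A gap remained among genes of high signal: in the 2388 genes at or above the lowest level of the 44 members with a mean above 8, the median SD was 0.13, against 0.08 for those members. In the same set the interval lay within 1.2-fold for 34 of 44 members and for 32.8% of the genes. The set has a lower bound but was not matched to the members in level. Its members run from 8.45 (Cox7a2l) to 13.67 (Cox6c), where the array maximum was 14.4. The part of signal level in these SDs and intervals was not tested. Sdha had the smallest SD of the members, 0.03, and Cox7b2 the largest, 0.40.

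Promoter sequences were found for 36 of the 48 members, in 39 windows. The NRF1 core letters TGCGCA were in 17.9% of the member windows and in 6.43% of all windows, and the ETS letters CCGGAAG in 23.1% and 6.91%. Both motifs contain a CpG, and the median CpG count was 14 in the member windows against 6 in all windows. The part of CpG content in these shares was not tested. The NRF1 core letters stood before Sdha, Sdhd, Cox5b, Cox6a1, Atp5g2, Atp5l and Atp5pb. Both strands were searched, and a match describes the letters and not a bound site. The other motifs searched were the YY1 letters AAGATGG (2.56% of member windows, 4.49% of all), the ERR letters AAGGTCA (5.13% and 4.08%) and the E-box CAGCTG (5.13% and 13%).

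The regulators of these genes were measured as a list of 15, of which 14 had a probe set. None passed adjusted p 0.05 in limma (0 of 14), and 1 had an unadjusted p under 0.05, against 5.99% of all genes. That gene was Ppargc1b, a coactivator that raises mitochondrial gene expression, at 7.53, 7.42, 7.47 and 7.53 on the placebo arrays and 7.14, 7.11, 7.31 and 7.05 on the DJ-1 arrays. Its groups did not overlap, its difference was -0.34 ± 0.09 (SE), and its adjusted p was 0.82. Ppargc1a, its close relative, differed by 0.26 ± 0.15 (SE) with overlapping groups, and Esrrb, an estrogen-related receptor, by -0.23 ± 0.12 (SE). Nrf1, named after its values were seen, also had groups that did not overlap (-0.13 ± 0.08, SE, adjusted p 0.83 in limma). The groups thus did not overlap for 2 of 14 regulators, against 3.22% of all genes. Members with the NRF1 core letters in their promoter had differences between -0.16 (Atp5l) and 0.08 (Sdhd).

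Assembly factors insert cofactors and put the subunits together. Of 38 listed, 33 were measured, 0 passed adjusted p 0.05, 0 had an unadjusted p under 0.05 and the median difference was 0.005. The lowest p-values in this list were those of Sdhaf4, which helps to mature the flavoprotein Sdha (-0.25 ± 0.12, SE), Lrpprc, which stabilises mitochondrial messenger RNA (-0.17 ± 0.09, SE), and Uqcc2, needed for cytochrome b of complex III (-0.18 ± 0.12, SE). Complex I, the other entry point of electrons, gave the same counts: of 34 subunits measured, 0 passed adjusted p 0.05 and 0 had an unadjusted p under 0.05. Its median difference was 0.03, with 22 genes higher and 12 lower in mean, and its lowest p-values were those of Ndufb3 (0.22 ± 0.13, SE), Ndufb8 (-0.19 ± 0.12, SE) and Ndufa2 (0.10 ± 0.09, SE).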

How the data were processed

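The authors deposited log2 expression values of 35556 probe sets on 8 Affymetrix whole-transcript arrays, made with RMA (robust multi-array average), per the submitters' processing notes. The version and software of RMA and the annotation build: not given in the sources used here. The labels' protocols state 100 ng of total RNA per array and an RNA integrity number above 7. Array medians lay between 5.25 and 5.35 and correlations between arrays from 0.978 to 0.987. The number of arrays limits the precision.

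Gene names came from the platform annotation: 21789 probe sets had 1 symbol, 1621 several and 12146 none. The probe set of highest mean was kept per gene. The 48 members had 70 probe sets. The groups were compared with limma 3.58.1 in R 4.3.3 (lmFit and eBayes, two-sided, no covariate), with Benjamini-Hochberg adjustment over 19938 genes. The p-values measure the spread between these samples, which the labels number within each group. The 3 isoform pairs were compared with exact permutation tests over arrays. The script was tested on simulated data. Promoter windows were the 250 bases before each start in the RefSeq table of GRCm38.p6.

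Members and gene lists, with the markers of 11 cell types, were chosen with earlier results of these data known. The 1.2-fold limit and the NRF1 core letters were set after results with a wider limit and a longer NRF1 motif had been seen. Named were all isoforms and core subunits by role, and in each complex the 3 members of smallest p and the 3 of largest absolute difference; from each pathway list, the 3 of smallest p. Alternatives were other normalizations, probe set and filter choices, an intensity trend, a replicate block and leaving out arrays.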

Additional observations from a re-analysis of the deposited data

Results flagged for a closer look

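In 5 of 102 groups of 4 arrays, over the members and the isoform pairs, an array stood apart from the other 3 by Dixon's criterion at 95%, where about 5.1 are expected by chance at 1 in 20. Atp5a1 was at 12.77 on placebo array 1 and between 12.72 and 12.73 on the other placebo arrays. Atp5pb, a stalk subunit of the ATP synthase, was at 11.53 on placebo array 1 and between 11.80 and 11.85 on the others. Cox8b was at 12.74 on placebo array 1, against 12.68 to 12.69 on the others. Cox6b2 was at 4.58 on DJ-1 array 2, against 4.89 to 4.95, a level close to the background guide. Cyc1 was at 12.17 on DJ-1 array 1, against 12.04 to 12.06.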

How the results depend on the processing

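Over 17 alternatives the number of members past adjusted p 0.05 remained 0, and the lowest adjusted p of any of the 33 named members was 0.71. Of these, 20 took either sign across the alternatives. Among all genes, 1 passed without DJ-1 replicate 3 (Pramel27) and 1 with replicates 1 and 2 only (Car3), so that leaving out 1 array gave 0 to 1. Centring each array on its median gave median differences of -0.0557 over the members, -0.0283 for complex II and -0.0607 for complex III. For complex III the median was 0.0123 with replicates 1 and 2 only, and from -0.0453 to -0.000242 with 1 array left out. The members whose groups did not overlap numbered 2 with quantile normalization (3.15% of all genes) and 2 with cyclic loess (3.18%), Atp5l and Uqcrq both times. With centring such members numbered 3 (Atp5l, Cox4i2 and Cox7a2l, against 3.93% of all genes). They numbered 3 without DJ-1 replicates 3 and 4 (13.1% of all genes), 8 with replicates 1 and 2 only (30.8%) and 0 to 4 with 1 array left out (5.07% to 7.54%), where fewer arrays make overlap less likely. The change in heart minus liver value of COX7A was -0.116 without DJ-1 replicates 3 and 4, -0.124 with replicates 1 and 2 only and -0.0191 to 0.108 with 1 array left out. The cause was not tested. Deviations of same-numbered arrays from the 2 groups correlated at 0.00452, 0.171, 0.177 and 0.00808. For arrays of different number the correlations ran from -0.285 to 0.287, a range that holds all 4 of these values. With so few correlations, the check cannot decide whether the shared replicate numbers pair the samples. With the replicate number as a block, 0 members and 0 genes in all passed, and the lowest adjusted p of a member was 0.80. With 4 arrays a group, 34 of the 48 members had an interval within 1.2-fold.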
